A study of Mus musculus with 11 samples.

Results

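The change in the ribosome-bound mRNA of forebrain excitatory neurons over the third postnatal week was taken from 6 immunoprecipitated (IP) mouse libraries, 3 from postnatal day 14 (P14) and 3 from postnatal day 21 (P21). Every gene with at least 1 TPM in at least 2 of these 6 libraries was included, which gave 16331 of the 77179 genes in the deposited table. TPM is the unit of a gene's share of all transcripts in a library, after correction for transcript length, so it gives relative and not absolute amounts. All 6 libraries came from cortex and hippocampus processed together, from mice of the genotype NEX-Cre;Rpl10aeGFP/eGFP, a cross of a NEX-Cre line on C57BL/6J with a RiboTag reporter line. NEX is another name of Neurod6, and Cre made from that gene switches on a green fluorescent version of the ribosomal protein Rpl10a in the neurons that express it. Lysates contained cycloheximide, which holds ribosomes on their mRNA, and tagged ribosomes were pulled down with magnetic beads against the fluorescent protein. The labels call the 3 IP samples of an age biological replicates without saying how many animals each held, so p-values measure the spread between these samples. Libraries of the same kind from postnatal day 7 (P7), 3 IP libraries of the same genotype and 2 whole-tissue (input) libraries, entered the same fit. One of the input libraries had the genotype Rpl10aeGFP/eGFP, without Cre.

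Translating ribosome affinity purification reads out the mRNA carried by the ribosomes of 1 genetically marked cell class within a whole tissue. Neurod6 is a transcription factor of postmitotic glutamatergic neurons of neocortex and hippocampus, and it is little used by interneurons or glia. In the weeks after birth these neurons finish extending axons and dendrites, lose cytoskeletal proteins of the growing neurite, and build up mature synapses and ion channels, while oligodendrocytes around them lay down myelin.

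The deposited values carried no read counts, and depth per library is unknown. Between 15509 and 15658 genes reached 1 TPM in the P14 libraries and between 15154 and 15645 in the P21 libraries. Correlations of log2(TPM + 1) across genes lay between 0.9862 and 0.9903 among the P14 libraries, between 0.9897 and 0.9933 among the P21 libraries, and between 0.9744 and 0.9825 across the ages. Replicate 1 of P14 stood nearest to P21. It was the highest P14 library in 58.1% of the genes that rose and the lowest in 59.8% of the genes that fell. Replicate 3 of each age held Xist, the RNA of the inactive X chromosome, at 3.38 TPM (P14) and 6.02 TPM (P21), with Eif2s3y, a Y-linked gene, at 0.182 and 0.205 TPM. The other P14 libraries held Eif2s3y at 29.0 and 27.6 TPM. Replicate 1 of P21 held both, Eif2s3y at 6.72 and Xist at 0.646 TPM, whereas replicate 2 of P21 had Eif2s3y at 16.2 and Xist at 0.0105 TPM. The labels give no sex. Counts were therefore also made without the 3 replicate 3 libraries of P7, P14 and P21, an alternative chosen after the data were seen and called here the fit without replicate 3 of all ages. An input library of P7 (Xist at 28.8 TPM) and replicate 1 of P21 also held Xist and stayed in that fit.

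Of the 16331 genes, 1636 rose (10.0%) and 3761 fell (23.0%) between P14 and P21, in a limma fit of log2(TPM + 1) with Benjamini-Hochberg adjustment over all genes tested and a threshold of 0.05. The other 10934 were not called. The shares of 10.0% and 23.0% are the background for the list counts below. Most calls were small: 142 genes rose by at least 2-fold (0.870%) and 125 fell by at least 2-fold (0.765%). P14 and P21 libraries did not overlap in 7756 genes (47.5%). The rule that named list genes took the largest called changes, which favours separate libraries. Lack of overlap in genes named below is therefore a description and not added support. The median change over all genes was -0.08 on the log2 scale, and rescaling each library by its median ratio to the others moved it to 0.01. Under that scaling 2643 genes rose and 2421 fell, so risers made up 52.2% of the calls against 30.3% on deposited TPM. Quantile normalisation gave 2412 and 2794, with risers at 46.3%. The balance between rises and falls therefore depended on the scaling, and the median itself moved by 0.09 with the scaling. Without replicate 3 of all ages 1090 genes rose and 3019 fell.

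The P7 libraries served to sort the genes by how the pull-down had treated them. Of the 3353 genes that were higher in the P7 pull-down than in P7 input (20.5% of those tested), 1174 fell (35.0%) and 369 rose (11.0%) between P14 and P21. Among the 7873 genes that were lower in the P7 pull-down than in input (48.2%), 1538 fell (19.5%) and 806 rose (10.2%). Of the 125 that fell by at least 2-fold, 61 were higher in the P7 pull-down and 22 lower, whereas of the 142 that rose, 11 were higher and 66 lower. The P7 libraries enter neither arm of the P21 against P14 difference, but P7 abundance itself differs between these classes, and the part of other cell types in the second group was not tested.

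**Figure D1:**
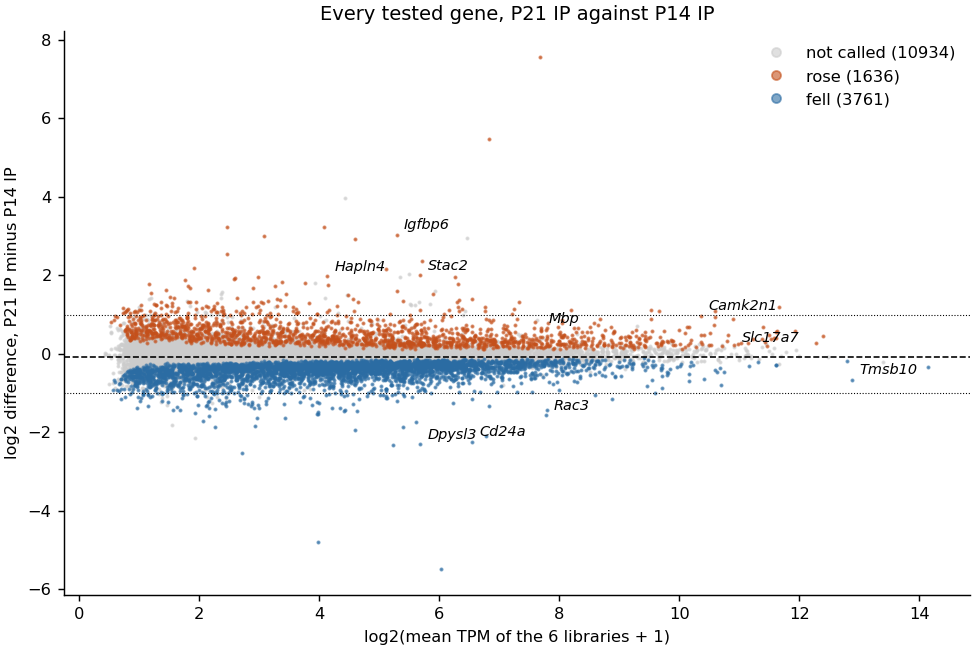
Each point is 1 of the 16331 genes tested, placed by log2(mean TPM + 1), with the mean taken over the 6 P14 and P21 IP libraries (horizontal axis), and by its log2 difference, P21 minus P14 (vertical axis). Red points rose and blue points fell at an adjusted p under 0.05, grey points were not called, dotted lines mark a 2-fold change, and the largest named changes reach 3.04 for Igfbp6 and -2.33 for Dpysl5.

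Markers of the labelled cell class were abundant. The vesicular glutamate transporter of most cortical excitatory neurons, Slc17a7, stood at 1892, 1854 and 1724 TPM in the 3 P14 libraries and at 2091, 2026 and 2023 TPM at P21, a log2 difference of 0.17 ± 0.10 (SE) that was not called (adjusted p = 0.234). Neurod6, whose locus drives Cre, read 94.1, 93.5 and 96.9 TPM at P14 and 73.3, 71.3 and 78.7 TPM at P21, with a difference of -0.35 ± 0.12 that narrowly missed the threshold (adjusted p = 0.0518). Its libraries did not overlap between the ages. Rpl10a, the tagged subunit, stood at 3634, 3400.0 and 3453 TPM and then at 3335, 2149 and 3432 TPM. One P21 library, replicate 2, lay below the other 5 (adjusted p = 0.416). Slc17a6, the transporter of subcortical and young cortical glutamatergic neurons, was far lower at 15.8, 16.1 and 17.8 TPM and fell to 11.7, 10.7 and 12.3 TPM (log2 difference -0.49 ± 0.08, adjusted p = 0.00144).

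None of the 16 defining markers of other cell types was at 0 in any of the 6 libraries, and 3 of the 16 rose, all of them oligodendrocyte genes. The astrocyte markers Aqp4, Gfap and Aldh1l1 lay between 3.21 and 23.6 TPM, against 36.3 to 135 TPM in P7 input. The inhibitory neuron markers Gad1, Gad2 and Slc32a1 lay between 2.58 and 12.2 TPM, against 23.1 to 71.1 TPM in input. Microglia, endothelial and oligodendrocyte precursor markers were lower still, at most 11.4 TPM. Against 10.0% of all genes that rose and 23.0% that fell, 5 of 20 inhibitory neuron genes rose and 5 fell. The share of the list that fell was thus near that of all genes, and the share that rose was above it. Rises were 2 without replicate 3 of all ages, and falls were 3 without replicate 2 of P14 and under median-ratio scaling. Gad1, the GABA-synthesising enzyme, read 9.27, 9.23 and 8.24 TPM at P14 and 8.62, 11.2 and 12.2 TPM at P21 (adjusted p = 0.295). Gfap, the astrocyte filament, read 12.3, 12.6 and 9.90 and then 11.9, 15.01 and 18.1 TPM (adjusted p = 0.163), and the libraries of the 2 ages overlapped for both genes. In libraries of this kind, more cells of a type and more RNA per cell cannot be told apart.

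Among the marker lists of other brain cells, the myelin list had the largest median. Of its 22 measured members 15 rose and 1 fell, with a median log2 difference of 0.78 against -0.08 for all genes. Mbp, the basic protein that compacts myelin, read 176, 179 and 127 TPM at P14 and 199, 275 and 285 TPM at P21, and its call (0.65 ± 0.18, adjusted p = 0.0187) was lost without replicate 3 of P14 at 0.49 (adjusted p = 0.0713), replicate 2 of P21 at 0.58 (adjusted p = 0.0683), replicate 3 of P21 at 0.55 (adjusted p = 0.0629) or replicate 3 of all ages at 0.40 (adjusted p = 0.19). Mog, a protein of the outer myelin surface, read 5.53, 5.05 and 3.98 and then 9.50, 14.97 and 14.1 TPM, and the tight junction protein of myelin, Cldn11, 12.9, 12.97 and 10.3 and then 20.4, 27.2 and 27.9 TPM. In Mog and Cldn11 replicate 1 of P21 was the lowest P21 library and still above every P14 library. The log2 differences were 1.23 ± 0.16 for Mog (adjusted p = 0.000266) and 0.99 ± 0.14 for Cldn11 (adjusted p = 0.000399). The summed level of the list went from 377 to 492 TPM at P14 to 612 to 869 TPM at P21, after 86.1 to 88.2 TPM in the P7 pull-down. Its 25 entries, which include 3 that were not tested, held 0.0449% ± 0.00626 (SD, n = 3) of all TPM at P14 and 0.0776% ± 0.0142 at P21 (exact permutation test, two-sided p = 0.10, the smallest that 3 against 3 allows, and 0.225 adjusted over 9 shares). The 1 fall of the list was lost without replicate 3 of P14, replicate 1 or 2 of P21 or replicate 3 of all ages, and under median-ratio scaling.

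Astrocyte genes moved less, with 7 of 22 rising, none falling and a median of 0.16. S100b, a calcium-binding protein of astrocytes, rose from 18.0, 13.5 and 11.5 TPM to 31.8, 30.7 and 31.6 TPM, and Apoe, the main lipid carrier released by astrocytes, from 216, 186 and 175 TPM to 272, 357 and 368 TPM. The P21 libraries of both lay above all P14 libraries. Only 4 of the list rose when replicate 2 or 3 of P14 or replicate 2 of P21 was left out, and 2 without replicate 3 of all ages. The list summed to between 568 and 661 TPM at P14 and between 738 and 919 TPM at P21. Microglia genes rose in 2 of 17 (11.8%, against 10.0% of all genes). None of the 13 precursor genes rose and 3 fell (23.1%, against 23.0% of all genes). Endothelial and mural genes rose in 3 of 16. The 2 microglia rises became 1 without replicate 1 or 3 of P14 or replicate 2 or 3 of P21, and 0 without replicate 3 of all ages. Endothelial and mural genes, of which none fell, had 3 falls without replicate 3 of P21, 2 without replicate 3 of all ages and 1 without replicate 1 or 3 of the P7 pull-down, and their median of 0.10 turned to -0.10 without replicate 3 of P21 and to -0.14 without replicate 3 of all ages. Among the precursor genes Gpr17, a receptor of cells committed to the oligodendrocyte lineage, fell from 10.1, 9.33 and 7.61 TPM to 4.96, 6.72 and 5.87 TPM, and the chondroitin sulfate proteoglycan Cspg5 from 164, 183 and 183 to 137, 139 and 134 TPM. Cspg5 held most of the summed level of this list, 220 to 240 TPM at P14 and 178 to 193 TPM at P21. The defining precursor markers Pdgfra and Cspg4 lay between 1.22 and 2.45 TPM. Whether precursor cells were the source of the Cspg5 RNA was not tested. Ly6c1 of endothelial cells rose from 5.40, 7.35 and 6.35 to 11.3, 12.7 and 11.9 TPM and Tagln of smooth muscle from a mean of 1.53 ± 0.263 (SD) to 4.73 ± 1.45 TPM, although Tagln overlaps Pcsk7, and the sources used here do not say whether strand was counted. Of the 7 measured proliferation genes, 2 fell (1 without replicate 2 of P14), and 11 of the 18 listed did not reach the level needed for testing.

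**Figure D2:**
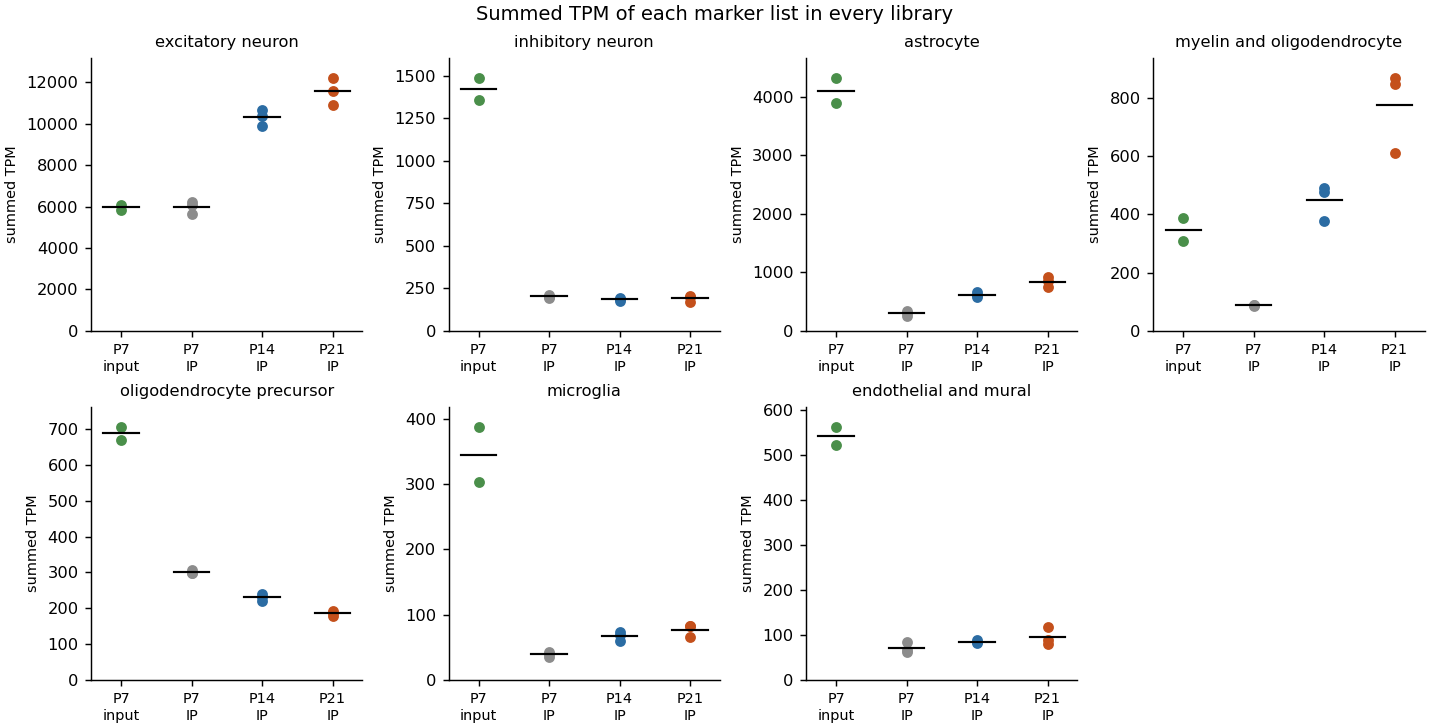
Summed TPM of marker lists in each library (vertical axis, linear from 0), with libraries grouped by kind along the horizontal axis: P7 input, P7 IP, P14 IP and P21 IP. Each point is 1 library, and myelin genes go from 377 to 492 TPM at P14 to 612 to 869 TPM at P21 while inhibitory neuron genes stay between 171 and 201 TPM at both ages.

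The largest rise among abundant named genes belonged to Igfbp6, a secreted protein that binds insulin-like growth factors, which read 10.00, 7.36 and 5.52 TPM at P14 and 78.7, 62.8 and 64.2 TPM at P21 (log2 difference 3.04 ± 0.16, adjusted p = 3.64e-06). Stac2, an adaptor of voltage-gated calcium channels, read 22.5, 19.4 and 17.0 TPM and then 86.3, 80.8 and 77.0 TPM (4.15-fold). Hapln4, a link protein that ties hyaluronan to proteoglycans in perineuronal nets, read 7.34, 5.72 and 5.26 and then 29.6, 22.4 and 28.7 TPM (4.41-fold). Replicate 1 was the highest library of each age in all 3. The rule for the 15 largest rises and the 15 largest falls ranked genes on log2(TPM + 1) and required P14 and P21 libraries that do not overlap, so their separation was fixed by the choice.

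Tnnc1 and Myh7, both also among these 15, are best known from striated muscle. Tnnc1, the calcium-binding troponin of slow muscle, read 39.4, 28.2 and 25.3 TPM at P14 and 126, 123 and 114 TPM at P21 (3.91-fold, adjusted p = 3.07e-05). Myh7, the slow myosin heavy chain, read 36.4, 30.5 and 21.5 TPM and then 109, 84.9 and 67.7 TPM (2.95-fold, adjusted p = 0.000258), with replicate 1 the highest library of each age. Myl4, an atrial myosin light chain chosen after its values were seen, rose from 46.9, 42.7 and 41.8 TPM to 110.3, 105 and 118 TPM (log2 difference 1.32 ± 0.09). At P7 the pull-down held Tnnc1 at 4.85, 4.05 and 3.39 TPM against 1.54 and 2.54 TPM in input, and Myh7 overlaps the antisense RNA Mhrt, so its reads may include those of that RNA.

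Like Tnnc1, Efhd2 and Pvalb belong to the calcium-binding list given below. Efhd2, an EF-hand protein that binds actin, rose from 101, 88.8 and 83.5 TPM to 256, 218 and 217 TPM (2.53-fold, adjusted p = 9.47e-06). Pvalb, the calcium buffer that marks fast-spiking interneurons, rose from 3.69, 3.79 and 2.90 TPM to 12.2, 14.7 and 14.6 TPM (4.00-fold, adjusted p = 7.45e-06). The Pvalb level stayed low beside Efhd2. Among interneuron genes Gad1, given above, was not called, and Sst, Npy and Vip rose. Of the 20 on the inhibitory neuron list 5 rose and 5 fell, against 10.0% and 23.0% of all genes. The part of interneuron RNA in the Pvalb rise was not tested. Mal and Trf, both genes of myelinating cells, rose 3.66-fold and 4.18-fold, Mal from 9.05, 7.71 and 4.75 TPM to 19.6, 27.8 and 31.3 TPM and Trf, the iron carrier transferrin, from 3.14, 2.72 and 5.07 TPM to 14.4, 14.3 and 17.0 TPM. Both are members of the myelin list described above.

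The other 6 of the 15 largest rises had varied roles. Gpd1, the cytosolic glycerol-3-phosphate dehydrogenase, read 14.4, 11.7 and 10.1 TPM and then 32.3, 31.5 and 35.2 TPM (2.73-fold). Epop, a partner of Polycomb repressive complex and elongin, read 47.1, 43.9 and 39.1 TPM and then 133, 113 and 98.1 TPM (2.64-fold). Fam107a, a stress-responsive actin regulator that is also strong in astrocytes, read 59.1, 55.1 and 38.1 TPM and then 116, 139.6 and 146 TPM (2.63-fold). Replicate 3 was the lowest P21 library for Epop and the highest for Fam107a. Fhad1 rose 3.11-fold to 16.8, 14.95 and 13.4 TPM but shares its locus with antisense genes. Ighm and Ighg2c, immunoglobulin heavy chain segments that overlap the gene Igh, rose 2.92-fold and 4.05-fold, and Ighm varied from 32.0, 13.7 and 12.97 TPM at P14 to 57.4, 43.6 and 70.5 TPM at P21.

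The largest falls were led by 2 collapsin response mediators, cytosolic proteins that carry guidance signals to microtubules in growing axons. Dpysl5 read 52.7, 64.2 and 67.1 TPM at P14 and 10.0, 11.8 and 12.4 TPM at P21 (log2 difference -2.33 ± 0.11, adjusted p = 3.2e-06). Dpysl3 read 68.4, 84.7 and 101 TPM and then 15.3, 15.7 and 17.3 TPM (5.26-fold lower). The surface glycoprotein Cd24a of immature neurons went from 128, 152 and 179.5 to 28.6, 29.7 and 36.7 TPM (4.85-fold lower). In all 3, replicate 1 was the lowest P14 library and still more than 3 times the highest P21 library.

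Among the other 12 of the 15 largest falls 5 encode cytoskeletal proteins or their regulators. Tubb2b, a beta-tubulin of migrating and growing neurons, fell 4.40-fold from 146, 176 and 209 TPM to 37.7, 39.4 and 43.5 TPM. Kif21b, a kinesin that limits microtubule growth, fell 3.78-fold from 56.3, 65.9 and 73.9 TPM to 16.1, 17.0 and 18.8 TPM. Rac3, a small GTPase of the neurite actin cytoskeleton, fell 2.99-fold from 274, 345 and 364 TPM to 114, 111 and 105 TPM. Replicate 1 was the lowest P14 library in these 3 as well. Dynlt1a and Dynlt1f, near-identical dynein light chains between which reads can be split, fell 2.91-fold and 3.08-fold, so their separate values are uncertain.

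Adhesion, secreted and other genes completed the falls. Cxadr, the coxsackievirus and adenovirus receptor and a homophilic adhesion protein, fell 4.17-fold from 29.7, 38.5 and 44.3 TPM to 8.15, 8.75 and 10.0 TPM. Mkrn3, an imprinted ubiquitin ligase known for holding back puberty, fell 4.71-fold from 9.56, 10.7 and 12.5 TPM to 1.72, 2.52 and 2.70 TPM. Sema4g, a membrane-bound semaphorin, fell 3.19-fold from 18.5, 24.0 and 24.5 TPM to 6.83, 7.14 and 7.02 TPM. Replicate 1 was again the lowest P14 library in each. Lefty2, an extracellular inhibitor of Nodal signalling, fell 3.65-fold to 3.71, 4.64 and 4.34 TPM and C1qtnf6, a secreted C1q-like protein, 3.90-fold to 2.25, 2.89 and 3.17 TPM. Faap100, a subunit of the Fanconi anaemia core complex, fell 3.19-fold to 6.14, 8.95 and 5.96 TPM. Sla, a Src-like adaptor, fell 2.90-fold to 10.0, 9.22 and 12.2 TPM, and its locus overlaps Tg.

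**Figure D3:**
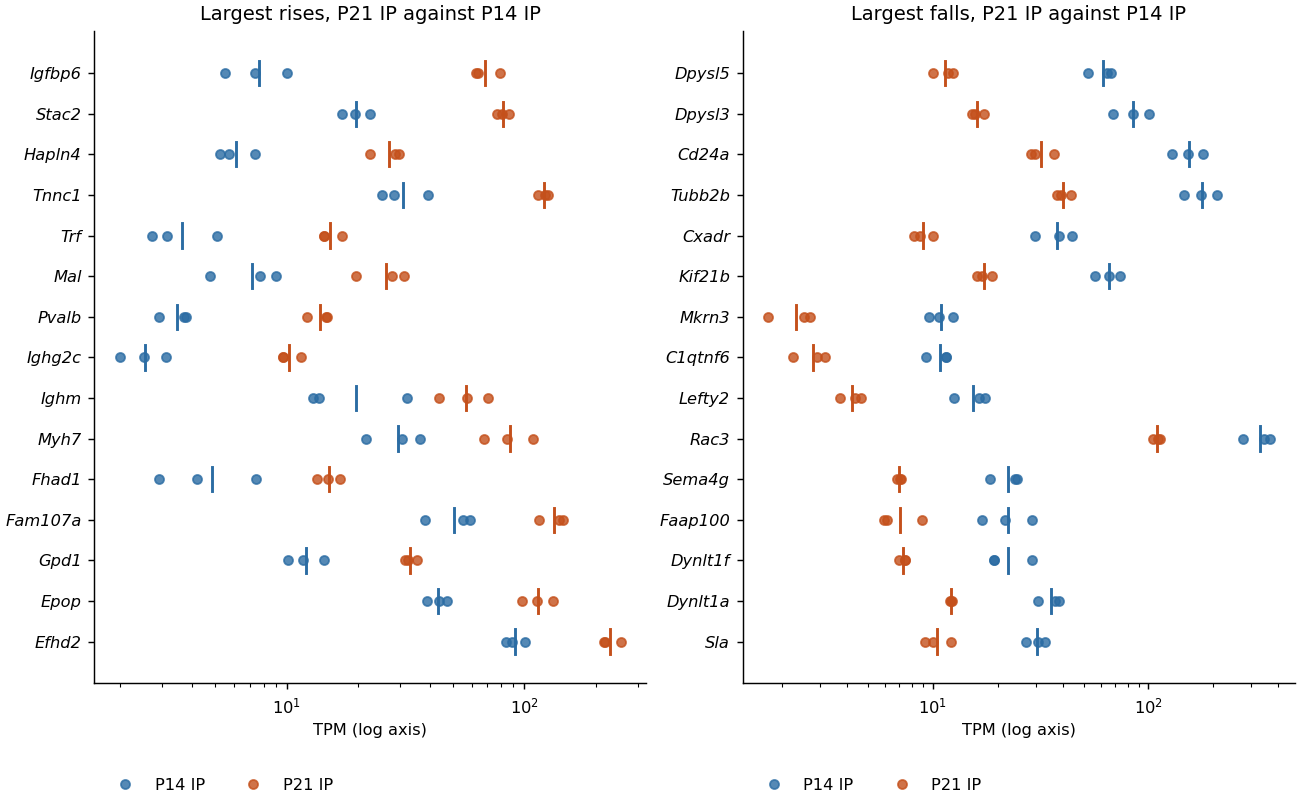
TPM in each of the 6 IP libraries, on a log axis, for the 15 abundant named genes that rose most (one panel) and the 15 that fell most (the other), with P14 and P21 libraries in separate colours. The 3 P14 points and the 3 P21 points of a gene lie apart because the naming rule required it, and the means differ by 8.99-fold for Igfbp6 and 5.39-fold for Dpysl5.

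No member of the immature neuron list rose, and 26 of the 33 measured fell. The median log2 difference was -0.56, and the count stayed between 22 and 27 under every alternative. The list held 2.36% ± 0.173 (SD, n = 3) of all TPM at P14 and 1.52% ± 0.0981 at P21, with no overlap (exact permutation test, two-sided p = 0.10; adjusted 0.225). Among its members are 3 abundant transcripts chosen here after their values were seen. Tmsb10, a thymosin that binds free actin, went from 8401, 9155 and 10200.0 TPM to 6339, 5778 and 5390.0 TPM (log2 difference -0.66 ± 0.09). Gap43, the growth cone protein of regenerating and developing axons, went from 1019, 1077 and 1141 TPM to 593, 596 and 582 TPM (-0.87 ± 0.07), and Stmn2, a tubulin-binding stathmin, from 955, 1051 and 1096 TPM to 523, 513 and 503 TPM (-1.01 ± 0.06). These 3 transcripts thus remained abundant at P21. Dpysl5 and Dpysl3, described above, were far lower than these already at P14 and fell by more on the log2 scale. Dcx, the microtubule stabiliser doublecortin, was low at both ages, 8.20, 8.98 and 10.9 TPM and then 3.08, 3.07 and 3.73 TPM. The 7 members that were not called were Basp1, Cnih2, Fabp7, Igfbpl1, Ina, Mex3b and Sox4.

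Axon guidance and growth genes fell in 22 of 45, and 1 rose, with a median of -0.27. Efnb3, an ephrin that repels corticospinal axons at the midline, fell from 114, 133 and 138 TPM to 58.4, 56.5 and 54.8 TPM (log2 difference -1.16 ± 0.08, adjusted p = 8.35e-06). Rgma, a repulsive ligand of neogenin, fell from 39.7, 43.6 and 44.9 TPM to 20.3, 19.6 and 20.8 TPM, and the adhesion protein L1cam, which bundles axons, from 58.2, 68.9 and 68.3 TPM to 34.9, 35.5 and 29.6 TPM. Its close relative Chl1 fell from 25.3, 27.1 and 30.8 TPM to 13.1, 13.3 and 15.3 TPM. P14 and P21 libraries were apart in all 4. The only riser was Rtn4r, the Nogo receptor that limits axon growth after myelination, at 178, 163 and 156 TPM and then 201, 189 and 189.9 TPM (0.22 ± 0.06, adjusted p = 0.0203). Its call was lost without replicate 2 of P14 at 0.21 (adjusted p = 0.0669), without replicate 3 of P14 at 0.18 (adjusted p = 0.083), without replicate 1 of P21 at 0.19 (adjusted p = 0.0716) and without replicate 3 of all ages at 0.19 (adjusted p = 0.0772). Under median-ratio scaling 3 of the list rose, and 2 under quantile normalisation.

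Most cholesterol synthesis genes fell. Neurons make their own cholesterol early in postnatal life and later take much of it from astrocytes, and the enzymes of the pathway share control by the sterol-sensing factor Srebf2. Of 27 measured members 17 fell and 2 rose, with a median log2 difference of -0.34, and between 14 and 18 fell under every alternative, while 4 rose under median-ratio scaling. Hmgcs1, which makes the precursor of mevalonate, fell from 197, 219 and 198 TPM to 111, 119.9 and 136 TPM (log2 difference -0.74 ± 0.08, adjusted p = 0.00014). Sqle, which oxidises squalene, fell from 53.6, 55.7 and 61.1 TPM to 33.8, 35.7 and 33.4 TPM (-0.71 ± 0.06, adjusted p = 2.73e-05). Dhcr7, the last reductase of the pathway, fell from 27.4, 29.7 and 29.4 TPM to 18.3, 17.4 and 17.8 TPM (-0.67 ± 0.05, adjusted p = 1.52e-05). In each of the 3 all P21 libraries lay below all P14 libraries.

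Other enzymes of the pathway, chosen after their values were seen, changed by similar amounts. Mevalonate kinase Mvk went from 43.3, 44.3 and 53.1 TPM to 32.8, 32.2 and 29.0 TPM (-0.56 ± 0.08), and the isomerase Idi1 from 33.6, 33.1 and 35.6 TPM to 21.8, 24.3 and 26.4 TPM (-0.48 ± 0.07). Cyp51, the lanosterol demethylase, went from 21.8, 22.7 and 23.4 TPM to 15.2, 15.6 and 16.0 TPM (-0.51 ± 0.07). These 3 genes fell without overlap between ages. Srebf2 itself did not fall, with 113, 104 and 109.9 TPM at P14 and 124, 117 and 119 TPM at P21 (0.14 ± 0.06, adjusted p = 0.0806), and neither Ebp (0.09 ± 0.11) nor Hsd17b7 (-0.10 ± 0.11) was called. The mevalonate-step enzymes Mvd (-0.27 ± 0.10, adjusted p = 0.0599) and Pmvk (0.04 ± 0.05, adjusted p = 0.554) were not called either, nor was Fdps. The risers were Cyp46a1, the neuronal enzyme that turns cholesterol into an exportable form, from 109.5, 103 and 97.0 TPM to 144, 134 and 127 TPM (0.39 ± 0.08, adjusted p = 0.00421), and Apoe, which also stood on the astrocyte list above.

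Because these genes moved together, their promoters were read from RefSeq (mouse assembly GRCm38.p6), 250 bases before to 50 bases after each annotated start. Such windows were found for 12 of the 17 genes that fell and for 10662 of all 16331 genes tested (65.3%). The CCAAT box, a binding site of the factor NF-Y that often lies beside sterol elements, was searched as CCAAT on both strands. It was present for 11 of the 12 (91.7%), against 42.8% of all genes with a window, and also for 6 of the 7 members with a window that did not fall (85.7%). Members with and without a fall thus held it at similar shares. The sterol element core TCACCCCA, also on both strands, was found for 1 of the 12 (8.33%, Hmgcs1), for 2 of the 7 (28.6%, Apoe and Srebf2) and for 1.86% of all. The GC box GGGCGGG was found for 9 of the 12 (75.0%), for 4 of the 7 (57.1%) and for 50.6% of all. Among all genes that fell and had a window its share was 52.9%. Other motifs, 16 in all, were searched the same way, and a match is a description of letters and not of binding. The windows below run 5′ to 3′ on the strand of the gene, with CCAAT or its complement in capitals. Hmgcs1 (chr13:119690101-119690400, plus strand) and Mvk (chr5:114444019-114444318, plus strand) are shown for their 4 and 5 matches, Idi1 (chr13:8885356-8885655, plus strand), Lss (chr10:76531355-76531654, plus strand), Cyp51 (chr5:4104648-4104947, minus strand) and Dhcr7 (chr7:143829964-143830263, plus strand, 1 of its 3 windows) for 1 or 2 matches in genes that fell. Srebf2 (chr15:82147019-82147318, plus strand) did not fall and has 1 match, and Acat2 (chr17:12960676-12960975, minus strand) fell and has none.
Hmgcs1: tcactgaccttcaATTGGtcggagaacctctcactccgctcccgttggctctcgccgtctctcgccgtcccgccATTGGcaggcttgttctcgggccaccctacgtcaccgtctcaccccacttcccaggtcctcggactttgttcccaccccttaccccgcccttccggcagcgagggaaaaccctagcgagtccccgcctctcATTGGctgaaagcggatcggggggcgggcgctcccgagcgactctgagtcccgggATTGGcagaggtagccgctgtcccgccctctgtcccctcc
Mvk: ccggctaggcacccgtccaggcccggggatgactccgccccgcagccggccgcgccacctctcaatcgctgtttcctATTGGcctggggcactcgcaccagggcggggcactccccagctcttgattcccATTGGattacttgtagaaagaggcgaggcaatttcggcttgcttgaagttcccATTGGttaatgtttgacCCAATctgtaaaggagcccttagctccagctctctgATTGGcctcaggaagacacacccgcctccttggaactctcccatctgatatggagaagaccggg
Idi1: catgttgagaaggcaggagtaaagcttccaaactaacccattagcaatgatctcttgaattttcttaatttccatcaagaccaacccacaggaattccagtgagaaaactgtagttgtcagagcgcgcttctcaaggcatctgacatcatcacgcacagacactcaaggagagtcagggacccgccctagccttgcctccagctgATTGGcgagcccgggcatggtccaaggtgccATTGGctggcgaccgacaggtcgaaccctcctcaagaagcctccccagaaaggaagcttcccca
Lss: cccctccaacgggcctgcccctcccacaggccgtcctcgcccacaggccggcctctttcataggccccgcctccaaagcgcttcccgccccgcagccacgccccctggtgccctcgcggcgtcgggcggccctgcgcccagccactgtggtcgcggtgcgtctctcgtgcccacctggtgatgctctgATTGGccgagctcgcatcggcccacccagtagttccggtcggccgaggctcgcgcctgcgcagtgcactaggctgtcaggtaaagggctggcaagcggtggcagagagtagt
Cyp51: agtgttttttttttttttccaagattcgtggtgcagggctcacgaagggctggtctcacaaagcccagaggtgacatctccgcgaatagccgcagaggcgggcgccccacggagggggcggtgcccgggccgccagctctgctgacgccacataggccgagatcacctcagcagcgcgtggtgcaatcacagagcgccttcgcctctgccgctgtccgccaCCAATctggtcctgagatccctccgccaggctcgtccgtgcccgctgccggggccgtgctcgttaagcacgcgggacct
Dhcr7: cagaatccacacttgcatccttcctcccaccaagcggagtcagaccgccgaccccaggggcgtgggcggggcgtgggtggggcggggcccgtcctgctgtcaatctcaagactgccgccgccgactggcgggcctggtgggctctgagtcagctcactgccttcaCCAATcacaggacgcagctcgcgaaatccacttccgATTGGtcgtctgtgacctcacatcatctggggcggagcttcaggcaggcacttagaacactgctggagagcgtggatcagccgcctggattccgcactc
Srebf2: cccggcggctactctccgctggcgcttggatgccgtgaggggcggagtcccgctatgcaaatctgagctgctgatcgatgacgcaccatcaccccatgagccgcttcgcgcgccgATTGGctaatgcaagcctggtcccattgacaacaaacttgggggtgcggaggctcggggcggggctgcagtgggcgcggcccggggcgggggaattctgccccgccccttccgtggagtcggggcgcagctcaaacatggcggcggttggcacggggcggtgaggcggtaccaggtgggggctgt
Acat2: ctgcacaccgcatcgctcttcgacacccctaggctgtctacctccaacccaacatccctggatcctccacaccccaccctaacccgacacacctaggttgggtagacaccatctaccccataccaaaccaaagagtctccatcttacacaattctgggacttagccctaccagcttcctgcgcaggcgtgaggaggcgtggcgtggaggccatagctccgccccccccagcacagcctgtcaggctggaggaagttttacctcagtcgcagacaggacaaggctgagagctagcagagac

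At the postsynapse, rises and falls were mixed. Of 36 scaffold and signalling genes 14 rose and 10 fell, with a median of 0.13. Camk2n1, an endogenous inhibitor of the kinase CaMKII, gave the largest rise of the list, from 934, 853 and 861 TPM to 1866, 1779 and 1572 TPM (log2 difference 0.98 ± 0.10, adjusted p = 8.92e-05). Ppp1r9b, the spine scaffold spinophilin, rose from 552, 579.8 and 541 TPM to 866, 801 and 801 TPM, and Dlgap1, which links the postsynaptic density protein Dlg4 to Shank proteins, from 108, 96.6 and 100.2 TPM to 138, 137 and 156 TPM. All 3 were free of overlap between ages. The kinase gene Camk2a stood at 646, 628 and 586 TPM and then 865, 753 and 886 TPM (0.43 ± 0.12, adjusted p = 0.0218). Its call was lost without replicate 2 of P14 at 0.44 (adjusted p = 0.0522), without replicate 3 of P14 at 0.39 (adjusted p = 0.0729), without replicate 1 of P21 at 0.40 (adjusted p = 0.0666), without replicate 3 of P21 at 0.38 (adjusted p = 0.0656) and without replicate 3 of all ages at 0.34 (adjusted p = 0.117).

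Scaffolds of the Dlg family did not rise. Dlg4, known as PSD-95, read 1269, 1296 and 1198 TPM and then 1149, 1125 and 1208 TPM (-0.11 ± 0.06, adjusted p = 0.207), and its libraries overlapped. Dlg2, known as PSD-93, fell from 151, 151 and 161 TPM to 105, 107 and 125 TPM (-0.46 ± 0.11, adjusted p = 0.00799). Dlg3 read 150.3, 147 and 133 TPM and then 124, 126 and 129 TPM, and its small fall (-0.18 ± 0.05, adjusted p = 0.0211) was lost without replicate 1 of P14 at -0.15 (adjusted p = 0.0761), without replicate 2 of P14 at -0.16 (adjusted p = 0.0803), without replicate 1 of P21 at -0.17 (adjusted p = 0.0663) and without replicate 2 of P21 at -0.18 (adjusted p = 0.0565). It was also lost under median-ratio scaling at -0.07 (adjusted p = 0.322) and quantile normalisation at -0.14 (adjusted p = 0.0556). The number of list members that rose was 9 without replicate 2 of P14, 7 without replicate 3 of P14, 8 without replicate 3 of P21 and 6 without replicate 3 of all ages. The number that fell was 6 without replicate 2 of P21, and 5 under median-ratio scaling.

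Among 28 ionotropic glutamate receptor genes 8 fell (28.6%) and 2 rose (7.14%), near the 23.0% and 10.0% of all genes. The median was -0.13, against -0.08 for all genes, and -0.03 under median-ratio scaling. Grin3a, an NMDA receptor subunit of juvenile synapses, fell most, from 10.1, 11.0 and 12.1 TPM to 4.57, 3.74 and 4.48 TPM (log2 difference -1.20 ± 0.09, adjusted p = 1.22e-05). Cacng4, an auxiliary subunit of AMPA receptors, fell from 29.0, 31.2 and 28.8 TPM to 16.0, 17.1 and 16.6 TPM and Neto2, an auxiliary subunit of kainate receptors, from 25.5, 26.9 and 32.6 TPM to 17.5, 15.9 and 20.3 TPM. Gsg1l, an auxiliary AMPA receptor protein that slows recovery from desensitisation, went the other way, from 35.2, 30.8 and 28.3 TPM to 60.2, 57.1 and 58.5 TPM (0.89 ± 0.09, adjusted p = 7.2e-05). P14 and P21 libraries were apart in these 4 genes. The subunits known for their developmental exchange moved little. Grin2b, the juvenile subunit, read 20.8, 17.7 and 21.7 TPM and then 18.1, 16.6 and 20.0 TPM (adjusted p = 0.396), and Grin2a, the later one, 13.1, 11.2 and 11.3 TPM and then 14.4, 13.2 and 16.4 TPM (0.28 ± 0.10, adjusted p = 0.0454). Grin2a was the other riser of the list, and its call was lost without replicate 2 of P14 at 0.25 (adjusted p = 0.139), without replicate 3 of P14 at 0.25 (adjusted p = 0.132), without replicate 1 of P21 at 0.29 (adjusted p = 0.0897), without replicate 3 of P21 at 0.21 (adjusted p = 0.142), without replicate 2 of the P7 pull-down at 0.28 (adjusted p = 0.0597) and without replicate 3 of all ages at 0.17 (adjusted p = 0.253).

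GABA receptor and chloride transporter genes fell in 8 of 21 and rose in 2, with a median of -0.11. Gabra5 and Gabra3, subunits that are strong in the young cortex, fell from 119, 126 and 127 TPM to 77.0, 78.9 and 85.8 TPM and from 66.6, 68.5 and 68.9 TPM to 54.6, 49.0 and 54.3 TPM, although Gabra5 overlaps another gene. Gabrd, the delta subunit of receptors that carry tonic current, rose from 26.0, 24.7 and 23.0 TPM to 41.3, 39.9 and 43.7 TPM (log2 difference 0.74 ± 0.09, adjusted p = 0.000178). Slc12a5, the chloride exporter KCC2 that makes GABA inhibitory, rose from 137, 134 and 124 TPM to 159, 154 and 165 TPM (0.28 ± 0.05, adjusted p = 0.002). The ages did not overlap in these 4 genes. The chloride importer Slc12a2 read 3.70, 3.73 and 4.25 TPM and then 3.01, 4.16 and 3.92 TPM (adjusted p = 0.656). The 8 falls became 5 without replicate 2 of P14, 4 without replicate 3 of P14, 3 without replicate 2 of P21, and 5 under median-ratio scaling, quantile normalisation or without replicate 3 of all ages.

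Presynaptic genes were split evenly, with 10 of 45 rising (22.2%) and 9 falling (20.0%) and a median near 0. Of all genes 10.0% rose and 23.0% fell. Vamp1, a vesicle SNARE of mature fast synapses, rose from 16.6, 15.8 and 14.3 TPM to 28.6, 26.0 and 29.9 TPM (log2 difference 0.82 ± 0.11, adjusted p = 0.000297), and Rims3, an active zone protein, from 23.6, 21.5 and 22.5 TPM to 42.5, 36.8 and 46.6 TPM (0.86 ± 0.12, adjusted p = 0.000523). Rab3b, a vesicle GTPase, fell from 69.5, 78.5 and 82.3 TPM to 38.0, 39.0 and 37.5 TPM (-0.99 ± 0.07, adjusted p = 1.22e-05). None of the 3 overlapped between ages. Rises numbered 6 without replicate 2 or 3 of P14 or replicate 3 of P21, 3 without replicate 3 of all ages and 16 under median-ratio scaling. Over all genes rises went from 1636 to 1237, 1167, 1424, 1090 and 2643 in these fits, in that order. Falls of the list stayed between 8 and 11 under every alternative. Fits with fewer libraries have less power, and what part of the loss of rises comes from that was not tested.

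Of 30 sodium, calcium and HCN channel genes 6 rose (20.0%) and 10 fell (33.3%), against 10.0% and 23.0% of all genes. Their summed level nevertheless rose, from between 2356 and 2542 TPM at P14 to between 3481 and 3895 TPM at P21. Scn4b, the beta subunit of resurgent current, rose from 3.85, 3.92 and 3.48 TPM to 9.93, 9.96 and 10.2 TPM (log2 difference 1.22 ± 0.10, adjusted p = 2.63e-05), whereas Scn3b, the beta subunit of young neurons, fell from 86.0, 85.8 and 89.7 TPM to 61.8, 55.3 and 63.9 TPM (-0.53 ± 0.06). Libraries of the 2 ages were apart in both. The T-type calcium channel Cacna1g fell from 37.2, 47.3 and 39.3 TPM to 24.6, 22.4 and 29.3 TPM.

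Potassium channel genes rose in 10 and fell in 10 of 52 (19.2% each), against 10.0% and 23.0% of all genes. Kcnab3, a cytoplasmic beta subunit, rose from 12.0, 10.2 and 8.67 TPM to 24.7, 22.9 and 22.7 TPM (log2 difference 1.12 ± 0.12, adjusted p = 0.00012), and Kcnip3, a calcium sensor of A-type channels, from 86.6, 77.3 and 73.5 TPM to 126, 116 and 131 TPM. Its relative Kcnip1 fell from 17.0, 17.1 and 17.3 TPM to 6.87, 7.89 and 7.71 TPM (-1.10 ± 0.07, adjusted p = 7.75e-06), and the modulatory subunit Kcng1 from 48.3, 41.1 and 42.8 TPM to 22.0, 24.2 and 23.0 TPM. No library of one age reached the range of the other in these 4. The balance moved with the scaling: 18 rose and 5 fell under median-ratio scaling, and 16 and 5 under quantile normalisation. Falls numbered 5 without replicate 2 or 3 of P14 or replicate 2 of P21 and 6 without replicate 1 of P21, and 6 genes rose without replicate 3 of all ages.

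Genes of the axon initial segment, node and neurofilaments rose in 3 and fell in 7 of 22. Cntnap1, the paranodal partner of contactin, rose from 18.2, 17.9 and 16.3 TPM to 30.9, 27.4 and 31.3 TPM (log2 difference 0.74 ± 0.14, adjusted p = 0.00303) while Cntn1, contactin itself, fell from 92.5, 97.8 and 103 TPM to 55.8, 54.8 and 65.6 TPM (-0.73 ± 0.08, adjusted p = 0.000117). Cntnap2, which places potassium channels beside the paranode, fell from 21.9, 22.6 and 23.7 TPM to 15.1, 15.5 and 15.2 TPM. These 3 genes were apart between ages. Under median-ratio scaling 4 of the list fell and 6 rose.

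Matrix genes fell in 9 and rose in 3 of 26, with a median of -0.16. Hapln4, described above, was among the rises, which numbered 1 without replicate 3 of all ages. Among the falls, Tnc, a glycoprotein of developing tissue, fell from 1.15, 1.44 and 1.599 TPM to 0.386, 0.457 and 0.477 TPM, Ptprz1, a receptor phosphatase and proteoglycan, from 4.69, 5.15 and 4.56 TPM to 1.90, 2.51 and 3.08 TPM, and Reln, the secreted signal of cortical layering that is also on the inhibitory neuron list, from 17.5, 16.5 and 19.4 TPM to 9.01, 9.95 and 11.2 TPM. All 3 had separate ranges at the 2 ages. Acan, the aggrecan of perineuronal nets, did not reach the level needed for testing, nor did Vcan, Hapln3, Has1 and Has2. Among genes with a mean of at least 5 TPM, 4 of the list fell and 1 rose.

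EF-hand and other calcium-binding genes rose in 10 and fell in 4 of 24, with a median of 0.13. Besides Tnnc1, Pvalb, Efhd2, S100b and Kcnip3, described above, Nrgn, a calmodulin-binding protein of dendrites, read 4792, 4537 and 4175 TPM and then 5868, 5018 and 5355 TPM. Its call (0.27 ± 0.07, adjusted p = 0.0176) was lost without replicate 3 of P14 at 0.21 (adjusted p = 0.074), without replicate 1 of P21 at 0.21 (adjusted p = 0.0559), without replicate 3 of all ages at 0.22 (adjusted p = 0.13) and under quantile normalisation at 0.00 (adjusted p = 1.0). Calb2, known as calretinin, fell from 38.7, 38.8 and 34.0 TPM to 21.1, 20.3 and 15.9 TPM (log2 difference -0.93 ± 0.12, adjusted p = 0.000256), and S100a10, an annexin partner, from 142, 166 and 174 TPM to 97.1, 108 and 97.8 TPM.

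Energy metabolism was marked by rises of nuclear genes of the respiratory chain. Of 66 nuclear genes of oxidative phosphorylation 27 rose and 2 fell, with a median log2 difference of 0.13, and the genes held 4.70% ± 0.0590 (SD, n = 3) of all TPM at P14 and 5.42% ± 0.131 at P21. The P14 shares were 4.76%, 4.64% and 4.69% and the P21 shares 5.43%, 5.54% and 5.28%, with no overlap (exact permutation test, two-sided p = 0.10; adjusted 0.225). Ndufa5, an accessory subunit of complex I, rose from 377, 413 and 382 TPM to 596, 613 and 515 TPM (log2 difference 0.55 ± 0.09, adjusted p = 0.00138). Cox8a and Cox6c, small subunits of cytochrome c oxidase, rose from 4889, 4194 and 4441 TPM to 6150.0, 6272 and 6227 TPM and from 2760.0, 2586 and 2530.0 TPM to 3386, 3706 and 3413 TPM. No P21 library of the 3 lay within the P14 range. Between 19 and 42 members rose under the alternatives, the highest under median-ratio scaling, and at most 3 fell. The 2 falls became 1 without replicate 2 or 3 of P14, replicate 2 or 3 of P21 or replicate 3 of all ages, and under median-ratio scaling. The promoter windows of the risers were searched as above: 23 of the 27 had one, and CCAAT was found for 8 (34.8%), near the 42.8% of all genes.

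mRNAs made in mitochondria did not move together. Of 13, 4 rose and 1 fell, with a median of -0.03 that turned to 0.08 under median-ratio scaling and without replicate 1 of P21, and a share of 2.15% ± 0.175 (SD, n = 3) at P14 and 2.39% ± 0.377 at P21 that overlapped (exact permutation test, two-sided p = 0.40). mt-Nd3, a complex I subunit, rose from 967, 869 and 720.3 TPM to 1201, 1556 and 1379 TPM, and mt-Nd6, a complex I subunit encoded on the other strand, fell from 1063, 1019 and 993 TPM to 599, 744 and 906 TPM. Ribosomes inside mitochondria translate these mRNAs, and all 13 were lower in the P7 pull-down than in input. Nuclear copies can share their reads. The other risers were the cytochrome oxidase mRNAs mt-Co1, mt-Co2 and mt-Co3. Without replicate 3 of P14 their calls were lost, at 0.49 (adjusted p = 0.0513), 0.51 (adjusted p = 0.0991) and 0.40 (adjusted p = 0.0623), and without replicate 3 of all ages as well, at 0.38 (adjusted p = 0.144), 0.40 (adjusted p = 0.2) and 0.31 (adjusted p = 0.175). Those of mt-Co2 and mt-Co3 were also lost without replicate 2 of P14, at 0.41 (adjusted p = 0.142) and 0.45 (adjusted p = 0.0505), without replicate 2 of P21, at 0.48 (adjusted p = 0.117) and 0.44 (adjusted p = 0.054), and without replicate 3 of P21, at 0.42 (adjusted p = 0.125) and 0.39 (adjusted p = 0.0543). Under quantile normalisation 2 of the 13 rose. The mt-Co2 call was lost without replicate 1 of the P7 pull-down too, at 0.53 (adjusted p = 0.0506).

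Glycolysis genes rose in 11 and fell in 5 of 23. Pfkl, a phosphofructokinase subunit at the committed step, rose from 39.1, 35.3 and 33.1 TPM to 63.7, 61.0 and 58.5 TPM (log2 difference 0.76 ± 0.07, adjusted p = 5.09e-05), and the enzymes Aldoa and Eno2 from 930.4, 862 and 838 TPM to 1571, 1298 and 1367 TPM and from 323, 295 and 272 TPM to 476, 421 and 422 TPM. Ldha, the lactate dehydrogenase subunit that favours lactate, fell from 412, 395 and 388 TPM to 325, 291 and 323 TPM (-0.35 ± 0.05, adjusted p = 0.000617), and Slc16a1, a monocarboxylate transporter, from 6.70, 7.89 and 7.59 TPM to 4.61, 4.57 and 4.95 TPM. Ages were apart in all 5. Without replicate 3 of all ages 5 rose, and 3 fell without replicate 1 or 3 of P14 or replicate 1 or 2 of P21 and under either scaling.

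Cytosolic ribosomal protein genes showed no common direction. Of 81, 6 rose and 11 fell, with a median of 0.01, and their share was 9.69% ± 0.237 (SD, n = 3) at P14 and 9.81% ± 0.687 at P21 (exact permutation test, two-sided p = 0.80). Rps12 rose from 433, 445 and 447 TPM to 609, 629 and 549.8 TPM and Rpl15 fell from 462, 457 and 532 TPM to 340.4, 391 and 387 TPM, both without overlap, although processed copies of these genes can share reads. The counts turned with the scaling, to 18 and 3 under median-ratio scaling and 3 and 15 under quantile normalisation. Rises were 14 without replicate 1, 3 without replicate 2 and 10 without replicate 3 of P21, and falls were 5 without replicate 2 or 3 of P14, 6 without replicate 1 of P21 and 5 without replicate 3 of all ages.

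Secreted signals held many rises. Of 39 neuropeptide and secreted signal genes 18 rose (46.2%, against 10.0% of all genes) and 4 fell, with a median of 0.29. Penk, the enkephalin precursor, rose from 26.0, 32.3 and 31.0 TPM to 65.4, 59.1 and 54.2 TPM (log2 difference 0.98 ± 0.11, adjusted p = 0.000148). Nptx2, an activity-induced pentraxin that gathers AMPA receptors, rose from 54.0, 41.1 and 40.6 TPM to 98.1, 76.0 and 87.5 TPM (0.94 ± 0.15, adjusted p = 0.00116), and Wnt10a, a Wnt ligand, from 2.72, 2.48 and 1.99 TPM to 6.52, 6.31 and 5.65 TPM. Nts, the neurotensin precursor, fell from 9.96, 8.75 and 9.46 TPM to 3.44, 2.92 and 3.05 TPM (-1.33 ± 0.11, adjusted p = 2.1e-05), and its receptor gene Ntsr1, a marker of layer-6 neurons, fell as well, from 6.10, 7.32 and 7.21 TPM to 3.76, 3.28 and 3.81 TPM. No overlap between ages was seen in any of the 5, a separation that naming by large called changes favours. Without replicate 3 of all ages 11 members rose and 2 fell. The risers included Sst, Npy and Vip, peptides of interneurons, and the part of interneuron RNA in them was not tested.

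In the insulin-like growth factor system 2 of 15 rose (13.3%), Igfbp6 and Igfbp7, and 4 fell (26.7%), against 10.0% and 23.0% of all genes. Igfbp7 rose from 5.84, 8.24 and 6.95 TPM to 16.2, 15.4 and 14.5 TPM, Igf2, a fetal growth factor, fell from 17.7, 17.5 and 15.7 TPM to 11.4, 9.86 and 10.2 TPM, and Igfbp5 from 24.5, 24.2 and 27.1 TPM to 17.5, 16.7 and 18.1 TPM. The binding proteins therefore moved in opposite directions, each without overlap. Igfbp6 rose in every alternative fit, and in P7 it stood at 0.536, 0.782 and 0.615 TPM in the pull-down against 5.65 and 5.89 TPM in input.

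G protein receptor genes rose in 4 (8.7%) and fell in 10 (21.7%) of 46, near the 10.0% and 23.0% of all genes. Adra2a and Adra2c, related receptors for noradrenaline, went in opposite directions, Adra2a from 20.6, 24.5 and 21.8 TPM to 13.1, 11.8 and 11.1 TPM (log2 difference -0.85 ± 0.08, adjusted p = 5.3e-05) and Adra2c from 11.7, 11.1 and 11.1 TPM to 17.3, 17.6 and 14.0 TPM (0.49 ± 0.11, adjusted p = 0.00721). Htr2c, a serotonin receptor, fell from 8.56, 8.67 and 9.78 TPM to 5.29, 5.34 and 4.81 TPM. P14 and P21 libraries were separate in the 3. Falls of the list numbered 5 without replicate 2 of P14 or of P21, 6 without replicate 1 of P21 and 6 under median-ratio scaling. Rises numbered 2 without replicate 1 or 3 of P14 or replicate 1 or 2 of P21, and 7 under quantile normalisation, where 7 fell.

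Immediate-early genes, which neurons switch on when they fire, rose in 9 and fell in 3 of 34, with a median of 0.19. Ier5, a stress and growth response gene, rose from 22.0, 18.1 and 17.7 TPM to 42.3, 33.8 and 31.4 TPM (log2 difference 0.86 ± 0.11, adjusted p = 0.000326), and Ptgs2, the inducible cyclooxygenase, from 1.89, 1.47 and 1.14 TPM to 2.79, 3.22 and 4.45 TPM. Nr4a3, an orphan nuclear receptor, fell from 18.7, 18.1 and 20.6 TPM to 12.9, 13.7 and 13.6 TPM. Each of the 3 had separate ranges at the 2 ages. Egr1 read 106, 104 and 91.5 TPM and then 106, 102 and 114 TPM (adjusted p = 0.522), with overlap. Under median-ratio scaling 16 of the list rose and under quantile normalisation 15.

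Of 23 deep-layer genes 11 fell and 1 rose, with a median of -0.31, while of 19 upper-layer genes 4 fell and 2 rose, with a median of -0.10 and with 2 falls and 4 rises under median-ratio scaling. The upper-layer shares, 21.1% and 10.5%, were near the 23.0% and 10.0% of all genes. The 1 deep-layer rise was lost without replicate 2 or 3 of P14, replicate 1 or 3 of P21 or replicate 3 of all ages, and 2 genes rose without replicate 2 of P21 and under either scaling. Upper-layer rises were 4 under quantile normalisation and 1 without replicate 3 of all ages. The difference between the 2 lists was not tested. Fezf2, the selector of subcortical projection neurons, fell from 57.4, 65.9 and 64.0 TPM to 39.7, 32.5 and 40.9 TPM (log2 difference -0.72 ± 0.10, adjusted p = 0.000438), and Syt6, a layer-6 synaptotagmin, from 11.0, 12.5 and 12.1 TPM to 7.30, 6.70 and 10.2 TPM. Among upper-layer genes Mdga1, a synaptic adhesion regulator, fell from 14.6, 14.4 and 13.4 TPM to 8.98, 8.61 and 8.86 TPM and Rspo1, a Wnt enhancer, rose from 4.94, 5.62 and 4.59 TPM to 10.8, 10.4 and 8.48 TPM. P14 and P21 libraries were apart in these 4. Of 26 broad excitatory neuron markers 3 rose (11.5%) and 7 fell (26.9%), near the shares of all genes, with a median near 0. Under median-ratio scaling 7 rose and 6 fell. The 3 rises became 0 without replicate 3 of P14, replicate 1 of P21 or replicate 3 of all ages, 1 without replicate 2 of P14 or replicate 3 of P21, and 5 without replicate 1 of the P7 pull-down. Neurod1, a relative of Neurod6, fell from 10.9, 11.5 and 10.6 TPM to 7.06, 7.59 and 7.05 TPM.

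Hippocampal field genes rose in 6 and fell in 9 of 27. Plk5, a polo-like kinase of the brain, rose from 1.93, 2.45 and 1.462 TPM to 5.32, 5.15 and 5.12 TPM (log2 difference 1.09 ± 0.12, adjusted p = 0.000137), and Bok, a Bcl2 relative, from 100.2, 112 and 105 TPM to 156, 189 and 173 TPM. Tdo2, a tryptophan dioxygenase, fell from 1.71, 1.92 and 1.85 TPM to 1.04, 0.384 and 0.621 TPM (-0.77 ± 0.16, adjusted p = 0.00427). All 3 were without overlap, and cortical and hippocampal RNA cannot be told apart in these libraries.

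Chromatin genes rose in 8 and fell in 7 of 32. Dnmt3a, the enzyme that lays down methylation in postnatal neurons, fell from 30.4, 31.8 and 33.2 TPM to 14.2, 16.7 and 19.3 TPM (log2 difference -0.90 ± 0.12, adjusted p = 0.000294), although it overlaps an antisense gene. The demethylation enzymes Tet1 and Tet3 fell from 3.00, 3.19 and 3.37 TPM to 1.22, 1.45 and 1.800 TPM and from 10.4, 9.68 and 10.7 TPM to 6.80, 6.40 and 7.96 TPM. Mbd3, a subunit of the NuRD complex, rose from 249.7, 241 and 228 TPM to 312, 344 and 308 TPM, and H1f0, a linker histone of non-dividing cells, from 46.5, 45.3 and 46.5 TPM to 63.8, 58.4 and 66.1 TPM. The ages were apart in all 5. Falls numbered 4 without replicate 3 of P14 or replicate 2 of P21, and rises 5 without replicate 3 of all ages.

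RNA-binding and splicing regulators fell in 9 (25.7%) and rose in 4 (11.4%) of 35, near the 23.0% and 10.0% of all genes. Under median-ratio scaling 6 fell and 6 rose. Celf3 and Celf6, neuronal splicing factors, fell from 137, 149 and 141 TPM to 116, 107 and 109 TPM and from 24.4, 26.5 and 25.5 TPM to 19.3, 19.7 and 20.1 TPM, and Ptbp2, which holds back mature exons in young neurons, from 41.1, 43.0 and 44.8 TPM to 32.8, 31.5 and 36.9 TPM. The 3 falls were small, between -0.36 for Celf3 and -0.34 for Ptbp2 on the log2 scale, and without overlap. The 4 rises of the list became 2 without replicate 1, 2 or 3 of P14 or replicate 3 of P21, and 1 without replicate 3 of all ages.

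Receptors and carriers of thyroid hormone, retinoids and steroids rose in 4 (16.0%) and fell in 5 (20.0%) of 25, against 10.0% and 23.0% of all genes. Rara, a retinoic acid receptor, fell from 14.2, 14.2 and 14.2 TPM to 8.97, 8.69 and 8.49 TPM (log2 difference -0.65 ± 0.07, adjusted p = 0.000112). Nr1d1, a clock repressor whose gene overlaps Thra, rose from 35.2, 35.5 and 35.4 TPM to 49.9, 46.2 and 49.1 TPM. Their ages did not overlap. The 4 rises became 1 without replicate 2 or 3 of P14 or replicate 1 of P21, and 2 without replicate 3 of all ages. Stress response genes rose in 5 and fell in 2 of 19. Cdkn1a, a cell cycle inhibitor under p53, rose from 27.3, 27.7 and 23.5 TPM to 37.6, 36.3 and 45.6 TPM, and Hspa1b, an inducible chaperone, from 0.747, 0.645 and 0.525 TPM to 2.19, 1.59 and 2.17 TPM. The 2 falls became 0 without replicate 2 of P14 and under either scaling, 1 without replicate 3 of P14 or replicate 1 or 2 of P21, and 4 without replicate 3 of P21. Globin genes, a sign of blood, rose in 3 of 5 but varied widely, and none rose without replicate 2 or 3 of P14, replicate 2 of P21 or replicate 3 of all ages. Hba-a1, whose reads can be split with its copy Hba-a2, read 157, 73.9 and 60.1 TPM at P14 and 147, 298 and 172 TPM at P21, with overlap. Its call was lost without replicate 2 of P14 at 1.00 (adjusted p = 0.0877), without replicate 3 of P14 at 0.86 (adjusted p = 0.0998), without replicate 2 of P21 at 0.83 (adjusted p = 0.104) and without replicate 3 of all ages at 0.95 (adjusted p = 0.131).

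**Figure D4:**
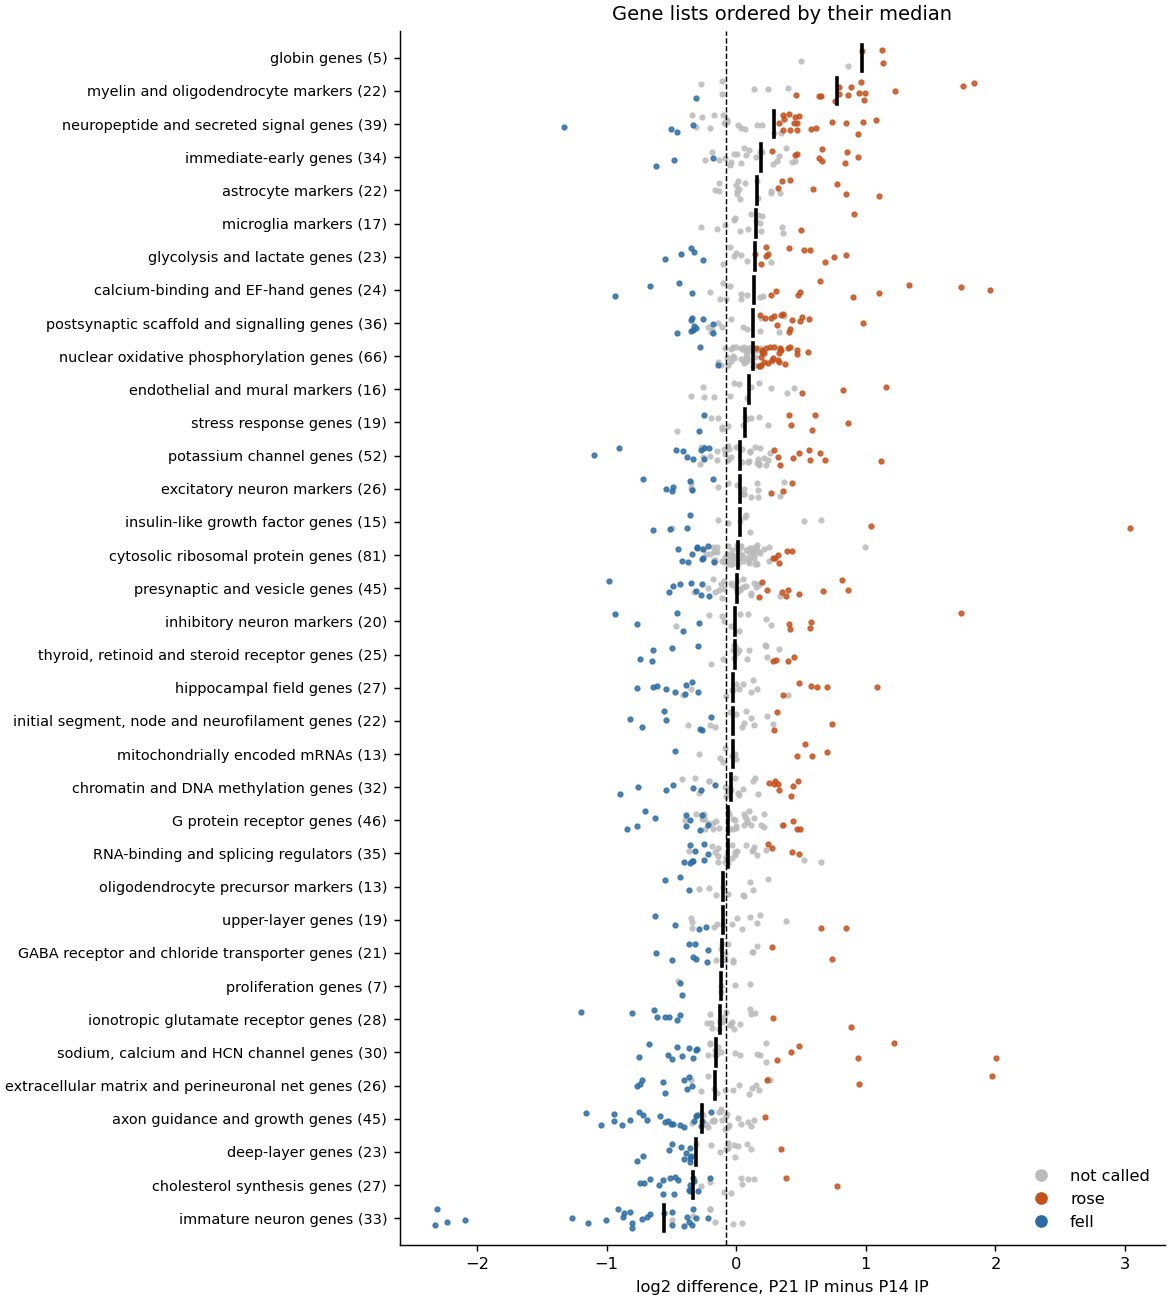
Log2 difference, P21 minus P14, of every measured member (points) of the gene lists, 1 list per line of the vertical axis, with thick ticks at the list medians and a dashed line at the median of all genes, -0.08. Immature neuron genes centre on -0.56 and cholesterol synthesis genes on -0.34, to the left of the line, and myelin genes on 0.78, to its right.

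The third postnatal week was also set against the week before it, as the P21 minus P14 difference less the P14 minus P7 difference in the same fit. Both differences use the P14 libraries, so a P14 level that is high by error lowers this contrast and a low one raises it. It was positive for 1292 genes (7.91%) and negative for 3241 (19.8%). Negative values were frequent in lists that had risen in the second week and then slowed, such as presynaptic genes (30 of 45), potassium channel genes (33 of 52), postsynaptic genes (29 of 36) and mitochondrially encoded mRNAs (13 of 13). Positive values were frequent in lists that had fallen and then slowed, such as immature neuron genes (17 of 33), ribosomal protein genes (43 of 81) and cholesterol synthesis genes (12 of 27). The median difference of immature neuron genes was -1.20 in the second week and -0.56 in the third, and that of postsynaptic genes 0.79 and then 0.13.

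Single genes showed how the 2 weeks joined. Tubb2b read 2029, 1752 and 1755 TPM at P7 before the P14 values given above, so the larger part of its fall had passed by P14 (difference of steps 1.29 ± 0.22, adjusted p = 0.00204). Kif21b read 89.3, 98.6 and 113 TPM at P7 and fell mainly in the third week, with a difference of steps of -1.24 ± 0.22 (adjusted p = 0.00256). Mkrn3 (18.4, 16.0 and 17.8 TPM at P7) and C1qtnf6 (17.7, 18.4 and 17.4 TPM at P7) did the same, at -1.21 ± 0.22 and -0.97 ± 0.18 (adjusted p = 0.00237 and 0.00308). In these 3 genes the fall was therefore larger in the third week than in the second. Npnt, an integrin ligand of the matrix, turned: it read 8.36, 12.3 and 13.6 TPM at P7, 33.1, 34.3 and 34.2 TPM at P14 and 14.6, 13.9 and 15.8 TPM at P21 (-2.66 ± 0.26, adjusted p = 0.000192). Ctsk, a cysteine protease, followed the same course at 1.56, 2.20 and 2.35 TPM, 10.1, 11.2 and 12.0 TPM and 6.07, 5.95 and 6.35 TPM. For Igfbp6 (0.536, 0.782 and 0.615 TPM at P7) the 2 steps did not differ past the threshold (0.68 ± 0.28, adjusted p = 0.0995), nor for Stac2 (0.37 ± 0.16, adjusted p = 0.107) or Dpysl5 (-0.22 ± 0.19, adjusted p = 0.421). The P7 values of Igfbp6 lay below 1 TPM, where log2(TPM + 1) understates the second-week step. The sign of its difference therefore does not show which step was larger.

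**Figure D5:**
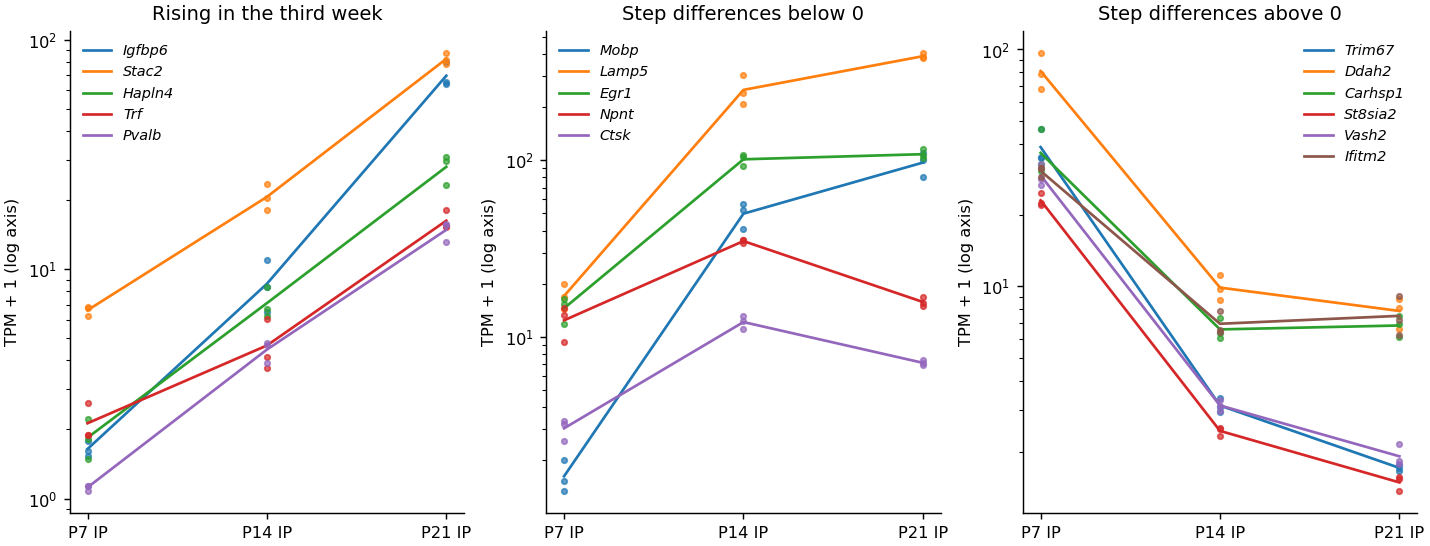
TPM + 1 on a log axis (vertical) in each IP library of P7, P14 and P21 (horizontal axis) for selected genes, with points for libraries and lines through the means. Igfbp6 rises in both weeks, Npnt goes from 8.36, 12.3 and 13.6 TPM at P7 to 33.1, 34.3 and 34.2 TPM at P14 and back to 14.6, 13.9 and 15.8 TPM at P21, and Trim67 has passed most of its fall by P14, from 45.2, 33.8 and 34.2 TPM to 1.95, 2.08 and 2.38 TPM.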

How the data were processed

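Polyadenylated RNA of 11 mouse libraries was sequenced on a NovaSeq X Plus, per the labels' protocols. The authors deposited TPM per gene and library (a gene's share of length-corrected transcripts). The submitters' processing notes name fastp 1.0.1, Salmon 1.10.0, DESeq2 1.46.0 and the build mm39 without giving their roles. The sources used here do not give the annotation release, the way transcripts were summed to genes or the strand setting. Values were taken as log2(TPM + 1), which understates the change of low genes, and fitted with limma 3.58.1 (R 4.3.3) as 1 mean per group over all 11 libraries, with a trended prior and 7 residual degrees of freedom. P-values were adjusted by Benjamini-Hochberg over the 16331 genes tested, with calls at 0.05. The code was tested on simulated data. Symbols came from a table of gene IDs that covered 50886 of 77179 IDs, and 1764 tested genes had none.

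The members and the 36 lists (1094 entries, 1034 tested) were chosen with earlier results of these data known. Genes were named if they belonged to a preset list of marker and subunit genes, were among the 15 largest rises or falls with at least 10 TPM in the higher group, separate libraries and an official symbol, or were among the 4 largest called rises or falls of a list or the 8 largest step differences in either direction. Other names are said to be chosen after their values were seen. Under this rule predicted genes and pseudogenes were left out, and some genes that the rule names are not reported here, although counts and sums include them. Shares of TPM were compared by exact permutation tests over samples. Alternatives were other pseudocounts, filters and scalings, moderation without a trend, a replicate block, fewer libraries, each IP library left out, and, added after seeing the data, replicate 3 of all ages (the IP libraries with Y-linked transcripts near 0) left out. Python 3.11.15, pandas 2.3.3 and matplotlib 3.10.9 were used for summaries and figures.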

Additional observations from a re-analysis of the deposited data

Results flagged for a closer look

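The difference between the third-week and the second-week step (the log2 difference P21 minus P14 less the log2 difference P14 minus P7) passed the threshold as positive in 1292 genes and as negative in 3241. Named genes here follow the rule of at least 10 TPM in the group with the highest mean and at most 8 genes in each direction. The P14 libraries enter both steps.

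The genes named here for the most negative differences were ones that had risen steeply before P14. Mobp, a myelin protein, had a difference of steps of -3.99 ± 0.38 (SE, adjusted p = 0.000184), with 0.338, 1.000 and 0.529 TPM at P7, 51.4, 55.2 and 39.9 TPM at P14 and 79.8, 109 and 98.9 TPM at P21. It went on rising in the third week, by less than in the second, although this third-week rise was lost without replicate 3 of all ages at 0.80 (adjusted p = 0.0829). Lamp5, a membrane protein of upper-layer neurons, had -3.22 ± 0.26, with 13.4, 18.9 and 15.8, then 303, 238 and 207, then 403, 383 and 376 TPM. Chn1os1, a transcript antisense to Chn1, had -3.48 ± 0.50. It is listed at 0 in the 3 P7 pull-down libraries and reads 35.1, 20.6 and 14.1 TPM at P14 and 65.3, 43.0 and 33.0 TPM at P21, a spread of more than 1.5 times within each age. Egr1, an activity-induced transcription factor, had -2.72 ± 0.19, since it rose from 10.8, 14.3 and 15.4 TPM at P7 to 106, 104 and 91.5 TPM at P14 and then read 106, 102 and 114 TPM. Wfdc18, a small secreted protease inhibitor, had -3.09 ± 0.43 and read 0.329, 1.56 and 1.22, 12.4, 18.6 and 14.2 and 15.1, 15.8 and 11.6 TPM at the 3 ages. Ctsk (-2.77 ± 0.26) and Npnt (-2.66 ± 0.26) fell after P14, with the values of the report.

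The 8 most positive differences belonged to genes whose fall had largely passed by P14. Trim67, a ubiquitin ligase of neurons, had 2.74 ± 0.21 (adjusted p = 9.48e-05), with 45.2, 33.8 and 34.2 TPM at P7, 1.95, 2.08 and 2.38 TPM at P14 and 0.658, 0.765 and 0.708 TPM at P21. St8sia2, the enzyme that adds polysialic acid to NCAM in the young brain, had 2.51 ± 0.16, with 23.7, 21.6 and 21.0, 1.34, 1.52 and 1.498 and 0.529, 0.366 and 0.561 TPM. Vash2, a tubulin carboxypeptidase, had 2.51 ± 0.24, with 31.9, 27.4 and 25.9, 1.98, 2.12 and 2.31 and 0.771, 0.821 and 1.15 TPM. These 3 fell further in the third week. Ddah2 (2.70 ± 0.26) read 95.5, 77.5 and 67.2, 7.78, 8.71 and 10.1 and 7.87, 7.12 and 5.62 TPM, and Fam131c (2.37 ± 0.28) 67.5, 53.2 and 40.6, 4.78, 6.33 and 5.59 and 2.84, 3.50 and 2.98 TPM. Carhsp1, a cold-shock domain RNA-binding protein, had 2.51 ± 0.26 and read 45.3, 31.9 and 29.6, 6.35, 5.33 and 5.05 and 5.12, 6.47 and 5.91 TPM. Plpp2, a lipid phosphatase, had 2.57 ± 0.26 and read 13.4, 11.8 and 10.1, 1.27, 1.456 and 1.41 and 1.21, 1.57 and 2.29 TPM. Ifitm2, an interferon-induced membrane protein, had 2.25 ± 0.24 and read 30.6, 30.7 and 27.8, 5.42, 5.54 and 6.88 and 6.18, 5.23 and 8.11 TPM. Carhsp1, Plpp2, Ifitm2 and Ddah2 were not called between P14 and P21.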

How the results depend on the processing

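Among the 266 named genes tested, 252 were called, 179 of these in all 22 alternatives run, and 73 lost the call in at least 1, 54 of them in the fit without replicate 3 of all ages and 44 without replicate 3 of P14. No called gene changed direction. Median-ratio scaling gave 2643 genes that rose and 2421 that fell, and step differences that were positive in 2198 and negative in 2075. Leaving out replicate 3 of all ages gave 1090 rises. Rises of at least 2-fold numbered 237 with a pseudocount of 0.1 TPM, 47 with 5 TPM and 82 among genes with a mean of at least 5 TPM, and falls of at least 2-fold 357, 33 and 74. Without replicate 1 of P14 there were 189 falls of at least 2-fold and 812 positive step differences. Leaving out 1 IP library at a time gave 1167 to 1712 rises, 2781 to 3882 falls, 122 to 163 rises and 122 to 189 falls of at least 2-fold, 812 to 1272 positive and 2162 to 3418 negative step differences. With no filter beyond a value above 0, rises numbered 7 of the postsynaptic, 6 of the presynaptic and 4 of the astrocyte list, 2 of the G protein receptor, splicing regulator and thyroid lists, 1 of the mitochondrial, glutamate receptor and microglia lists and 0 of the excitatory, globin, axon guidance and deep-layer lists. Falls then numbered 5 of the potassium channel, G protein receptor and ribosomal protein lists, 3 of the glycolysis and inhibitory neuron lists and 1 of the stress list. With a mean of at least 5 TPM, 5 glutamate receptor and 3 inhibitory neuron genes fell, no myelin or proliferation gene fell, 5 excitatory genes rose, and 1 microglia and 1 endothelial gene rose. In the fit of the 6 P14 and P21 libraries alone, 7 ribosomal protein genes and 1 endothelial gene fell, and 5 excitatory, 5 initial segment, 1 glutamate receptor and 0 globin genes rose. With the replicate number as a block, 1674 genes rose and 3979 fell, 145 and 128 of them by at least 2-fold, and the steps gave 1340 and 3475, with 5 excitatory, 1 glutamate receptor and 0 deep-layer genes rising. Whether equal replicate numbers pair the libraries could not be settled. Correlations of same-numbered deviations were 0.026, 0.083 and 0.035, and replicate 1 of P14 correlated best with replicate 3 of P21 (0.056). Small correlations over all genes cannot exclude a pairing, and replicate 3 of every age held Xist with Y-linked transcripts near 0. Of the genes not called, 2 changed sign. Cx3cr1 (log2 difference -0.021) stood at 0.046 under median-ratio scaling, 0.021 under quantile normalisation and 0.008 without replicate 2 of P14, and between -0.064 and 0.055 over the fits without 1 library. Slc12a2 (-0.066) stood at 0.018 and 0.013 under these scalings and between -0.137 and 0.043 over the fits without 1 library. The cause of these shifts was not tested. Depth is unknown, so counting error could not be separated from other spread.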
